A study of Danio rerio with 6 samples.

Results

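Zebrafish embryos injected with alpha-amanitin were set against the control embryos kept for that experiment, called control B, both taken at 6 hours post fertilisation (hpf). The comparison covers 16114 gene rows of 32571, namely those at 1 FPKM or more in at least one of these groups. FPKM are fragments scaled for transcript length and sequencing depth. The row nearest the limit inside stood at 1 FPKM and the nearest outside at 0.999.

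All embryos were of the AB strain, were obtained by natural breeding and were sequenced whole as stranded total RNA after removal of ribosomal RNA, from pools of 40 to 50 embryos per extraction. The amanitin group was injected with a-amanitin at a stage and dose the labels do not give. Control B is labelled as the control for the amanitin experiment, and the labels do not say whether it was injected with a vehicle. A separate control at 6 hpf and a control at 2 hpf, used here to sort genes, are labelled as control embryos with no treatment named. Embryos at 6 hpf injected with a morpholino against miR-430, or with a dominant negative CNOT7 (CNOT7-DN), are used for a comparison near the end.

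The series design states 3 replicates, but the table gives 1 value per gene and group. No spread between replicates can be given, and depth is unknown. "Rose" and "fell" are used only of genes with a q-value (a p-value adjusted for the number of genes) under 0.05 in the authors' deposited table. Those calls may measure technical spread, since no source used here says that replicates were separate clutches. Sizes are log2 ratios of FPKM + 1, amanitin over control B, which understate the change of genes at low levels. A gene is called 2-fold higher or lower on that scale.

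Alpha-amanitin, the toxin of the death cap mushroom, binds RNA polymerase II and blocks its movement along DNA. RNA polymerase III is known to be less sensitive and RNA polymerase I hardly sensitive. The early zebrafish embryo lives on RNA that the mother laid down in the egg, then switches on its own genome at the midblastula transition and, in parallel, destroys much of the maternal RNA. Embryos without RNA polymerase II activity are known to stop before gastrulation, the stage that control embryos have reached at 6 hpf.

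In amanitin embryos 12962 genes stood at 1 FPKM or more, against 15252 in control B. Both groups reached that level for 12100 genes, amanitin alone for 862 and control B alone for 3152. Listed at 0 were 788 of the 16114 genes in amanitin and 35 in control B. Summed FPKM over the whole table was 747626 in amanitin and 963040 in control B, and the 10 genes with the highest level held 12.6% and 11.3% of it. Of 15235 genes the authors tested, 6331 rose, a share of 41.6%, and 4452 fell, a share of 29.2%, in the authors' deposited table. By size 3299 genes (20.5%) were at least 2-fold higher and 4627 (28.7%) at least 2-fold lower, with a median log2 ratio of 0.12 over all genes. After rescaling both groups to the same sum the median was 0.44, a shift of 0.32, with 5122 genes higher and 4104 lower. Of the genes past 2-fold in either direction, 41.6% were higher in amanitin as deposited and 55.5% at equal sums. FPKM are shares of the RNA sequenced, so fewer cells of a type and less RNA per cell cannot be told apart here, nor can a lasting RNA be told from one whose share grew as others were missing.

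Genes were sorted with the 2 hpf and control 6 hpf values alone, which neither amanitin nor control B enters. Amanitin and control B do decide which genes are considered. Of the 16114 genes, 895 were purely zygotic, below 1 FPKM at 2 hpf and at 5 or more in control 6 hpf. A further 1126 were gained: they stood at 1 FPKM or more at 2 hpf, and were at least 2-fold higher and at 5 FPKM or more in control 6 hpf. Steady genes numbered 5789, at 5 FPKM or more at 2 hpf and less than 2-fold different later. Cleared genes, 4262 of them, were at 5 FPKM or more at 2 hpf and at least 2-fold lower in control 6 hpf. The remaining 4042 were low.

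Purely zygotic genes were nearly all missing from amanitin embryos. Their median level was 0.0854 FPKM in amanitin, against 21.4 in control B and 0.0791 at 2 hpf, and 98.1% of them were at least 2-fold lower, beside 28.7% of all genes. In amanitin 818 of the 895 stayed below 1 FPKM and 243 were listed at 0. Those 818 are considered only through control B, so for them a lower value follows from the filter. Of the 895 genes 435 fell and 6 rose in the authors' deposited table, beside 29.2% and 41.6% of all genes tested. A large ratio often went without a call: foxd5, a forkhead transcription factor of the early embryo, stood at 0.0392 FPKM in amanitin and 194 in control B with a q of 0.182 there. Together the purely zygotic genes made up 0.212% of summed FPKM of the genes considered in amanitin and 10.6% in control B.

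Gained genes, already present in the egg, held an intermediate place. Their medians were 6.995 FPKM in amanitin, 68.3 in control B and 10.6 at 2 hpf, so the median in amanitin lay below that of the egg. Their summed FPKM was nevertheless 179831 in amanitin and 113443 at 2 hpf. Abundant non-coding members added to it, such as the 7SK RNA rn7sk (10103 FPKM in amanitin, 395 at 2 hpf) and an RNase P RNA (10685 and 4557). Some abundant protein-coding members also stood above the egg, such as actb2, a cytoplasmic actin (990.1 FPKM in amanitin, 1319 in control B, 479 at 2 hpf). Of 1126, 79.2% were at least 2-fold lower, and 933 fell and 1 rose in the authors' deposited table. Their share of summed FPKM was 24.1% in amanitin and 44.5% in control B.

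Cleared genes went mostly the other way, and steady genes did so by the authors' calls. Among steady genes 2790 rose and 1531 fell, and among cleared genes 2662 rose and 545 fell by the calls of the authors' deposited table. These calls stand beside 41.6% rising and 29.2% falling over all genes tested. At least 2-fold higher were 19.2% of steady and 42.4% of cleared genes, beside 20.5% of all genes. At least 2-fold lower were 15.5% of steady and 6.55% of cleared genes, beside 28.7% of all genes. For steady genes the balance of size depended on the setting: centred on the median gene 13.9% were higher and 17.3% lower, with a pseudocount of 5 the shares were 11.5% and 11.7%, and with control 6 hpf in place of control B they were 14.7% and 15.5%. Median levels of cleared genes were 12.9 FPKM in amanitin, 7.40 in control B and 30.3 at 2 hpf. Low genes had a median log2 ratio of -0.60, with 41.6% at least 2-fold lower. Steady and cleared genes together formed 59.1% and 15.7% of summed FPKM in amanitin, against 38.03% and 5.75% in control B.

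**Figure D1:**
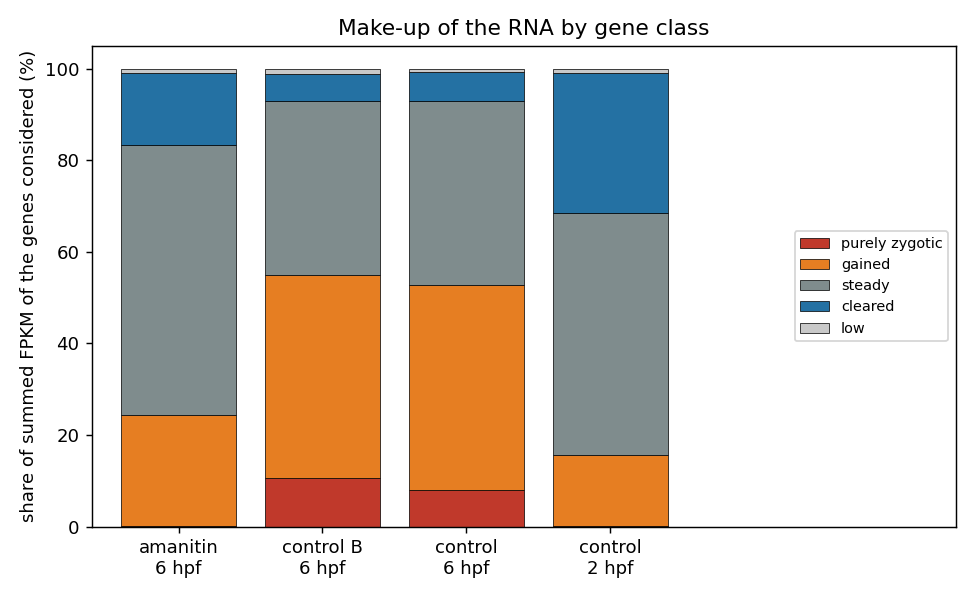
Stacked bars give the share of summed FPKM (percent, vertical axis) of the genes considered that each of the 5 gene classes held in amanitin, control B, control 6 hpf and control 2 hpf embryos. The classes were defined from the last pair of bars. Purely zygotic genes, 0.212% in amanitin and 10.6% in control B, are barely visible in the amanitin and 2 hpf bars.

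The size of the difference followed how much a gene changes in normal development. Only genes at 5 FPKM or more at 2 hpf or in control 6 hpf were grouped here, which leaves out many low genes. Genes whose control 6 hpf level was at least 5 log2 units above 2 hpf (n = 356) had a median log2 ratio of amanitin to control B of -6.19. The median was -3.01 for genes gaining 2 to 3 log2 units (n = 440), -1.53 for those gaining 1 to 2 (n = 695) and -0.19 for those gaining less than 1 (n = 1954). It was 0.59 for genes that lost less than 1 log2 unit (n = 3948), 0.84 for a loss of 1 to 2 (n = 3421) and 0.55 for a loss of 2 to 3 (n = 792). The 49 genes with a loss of over 3 had a median of 0.11. So the order did not continue to the end: the genes with the deepest normal decline were not the ones furthest above control B. For genes gaining at least 5 log2 units, median levels were 0.157 FPKM in amanitin and 0.0656 at 2 hpf. Where both are that low, both ratios rest mainly on the level of the 6 hpf controls. The order among such genes then follows largely from arithmetic.

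**Figure D2:**
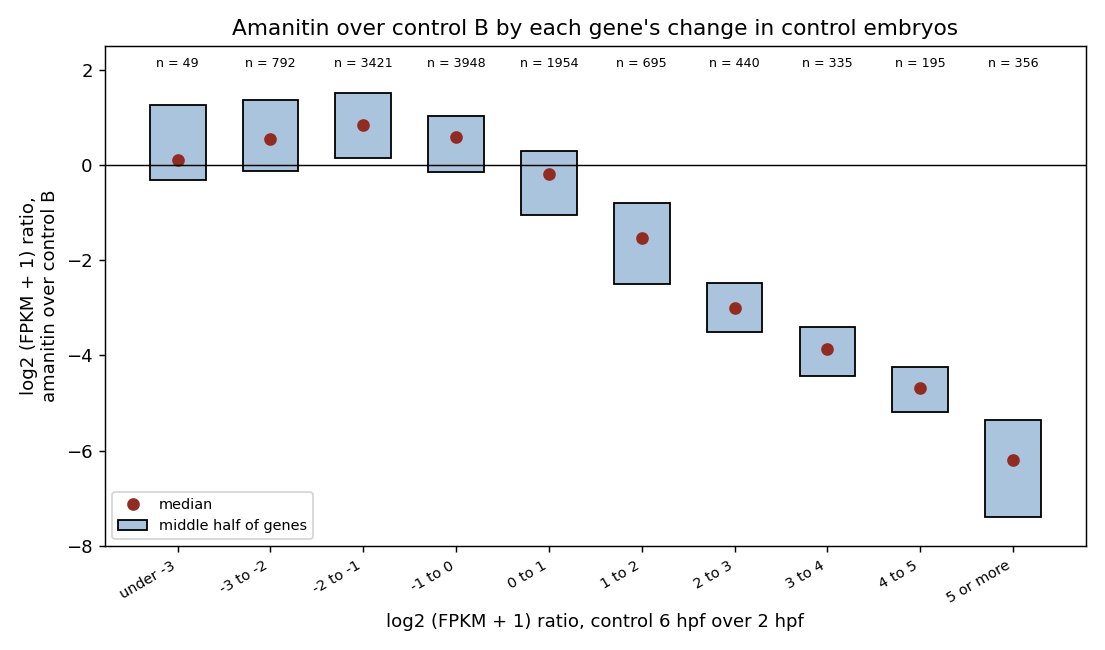
Genes are grouped along the horizontal axis by their log2 (FPKM + 1) ratio of control 6 hpf to 2 hpf, and the vertical axis gives the log2 (FPKM + 1) ratio of amanitin to control B. Only genes at 5 FPKM or more at 2 hpf or in control 6 hpf are included. Points are medians, boxes span the lower to the upper quartile and n is the number of genes. Medians fall to -6.19 on the right and reach their highest value, 0.84, for genes that normally lose 1 to 2 log2 units. At the far right amanitin and 2 hpf levels are both very low, so both ratios rest mainly on the 6 hpf controls.

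Both groups were also set beside the egg RNA of 2 hpf. Of the 4262 cleared genes, 2170 (50.9%) in amanitin and 4027 (94.5%) in control B were at least 2-fold below their 2 hpf level. The median log2 ratio to 2 hpf was -1.03 in amanitin and -1.80 in control B. The 2 hpf values also defined the class, so these figures describe it and carry no test. Amanitin was at least 4-fold above control B for 457 cleared genes and at least 4-fold below it for 58. Among the cleared genes at the top were got2a, the mitochondrial aspartate aminotransferase (80.2 FPKM in amanitin, 6.81 in control B, 45.6 at 2 hpf), and mknk1, a kinase of the translation factor eIF4E (118 FPKM in amanitin, 10.5 in control B, 89.8 at 2 hpf). Both stood above their 2 hpf level in amanitin.

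The cleared genes that fell furthest lay below control B as well as below the egg. Survivin, birc5a, an inhibitor of cell death and part of the chromosomal passenger complex, had 6.38 FPKM in amanitin, 72.0 in control B and 157 at 2 hpf. The ubiquitin ligase traip, which acts at stalled replication forks, had 1.74 FPKM in amanitin, 29.6 in control B and 64.1 at 2 hpf. The autophagy protein atg12 had 1.05 FPKM in amanitin, 15.5 in control B and 51.5 at 2 hpf. The log2 ratios were -3.31 for birc5a, -3.48 for traip and -3.01 for atg12, each with a q of 0.000105 in the authors' deposited table, the smallest the table holds. The LIM-only factor lmo4a differed between the controls, with 2.27 FPKM in amanitin, 29.8 in control B, 12.1 in control 6 hpf and 27.6 at 2 hpf.

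Steady genes also held some whose level in control embryos hid a large difference. Cyp26a1 (chromosome 12, 9708962 to 9712555 in Zv9), the enzyme that degrades retinoic acid, had 2.36 FPKM in amanitin, 95.9 in control B and 57.6 at 2 hpf, a log2 ratio of -4.85. Diabloa, an antagonist of inhibitors of apoptosis, had 1.39 FPKM in amanitin, 64.0 in control B and 22.1 at 2 hpf. The nuclear export cofactor nxt2 had 1.55 FPKM in amanitin, 48.9 in control B and 30.5 at 2 hpf. All of these fell in the authors' deposited table, and in amanitin each was far below its level in the egg as well as below control B. In the other direction, the mTOR pathway repressor tsc1a had 141 FPKM in amanitin, 29.1 in control B and 71.5 at 2 hpf. The actin histidine methyltransferase setd3 had 65.1 FPKM in amanitin, 12.6 in control B and 46.2 at 2 hpf. The leucine zipper gene tsc22d1 had 118 FPKM in amanitin, 23.97 in control B and 41.3 at 2 hpf. These rose by log2 ratios of 2.24, 2.28 and 2.26 with a q of 0.000105 in the authors' deposited table.

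Several of the lowest ratios of the gained class belonged to genes barely present in the egg. The amino acid transporter subunit slc3a2b had 0.339 FPKM in amanitin, 402 in control B and 1.53 at 2 hpf. Annexin A1, anxa1a, had 0.700 FPKM in amanitin, 453 in control B and 1.58 at 2 hpf. The BMP target id1, an inhibitor of basic helix-loop-helix factors, had 2.15 FPKM in amanitin, 674 in control B and 22.2 at 2 hpf, a log2 ratio of -7.74. In amanitin id1 thus stood below the egg as well. All of these fell in the authors' deposited table.

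The only gained gene that rose encodes the catalytic subunit of the enzyme that the toxin binds. Polr2a (chromosome 12, 23915881 to 23926807 in Zv9), the largest subunit of RNA polymerase II, had 67.5 FPKM in amanitin, 41.5 in control B, 32.9 in control 6 hpf and 11.97 at 2 hpf, a log2 ratio of 0.69 with a q of 0.000105 in the authors' deposited table. It was above every control. Of 15 RNA polymerase II subunit rows, all considered, 3 rose and 10 fell there, with a median of -0.81 beside 0.12 for all genes. The shares over all genes tested were 41.6% rising and 29.2% falling. The second largest subunit polr2b had 76.7 FPKM in amanitin and 107 in control B, and the small subunit polr2k had 5.47 FPKM in amanitin and 133 in control B. Subunits of one enzyme therefore lay on both sides of control B. Of 16 rows for RNA polymerases I and III, 4 rose and 8 fell (median -0.65). Among them polr3e rose, with 133 FPKM in amanitin and 56.8 in control B, and polr1e fell, with 4.90 FPKM in amanitin and 45.4 in control B.

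Of general transcription factors and Mediator subunits, 83 considered of 85 rows, 38 rose and 26 fell by the authors' deposited table (median 0.26), beside 41.6% rising and 29.2% falling over all genes tested. By size 14 were at least 2-fold higher and 21 lower. The TATA-binding protein gene tbp had 327 FPKM in amanitin, 68.3 in control B and 165 at 2 hpf. The TFIIA gene gtf2a1 had 355 FPKM in amanitin and 117 in control B, and the TFIIE gene gtf2e1 had 181 FPKM in amanitin and 62.7 in control B. The level of tbp in amanitin was also above that of the egg. For Integrator and 3′ end processing, 10 rose and 11 fell of 30, and the median of -0.03 turned positive at equal sums.

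Signalling genes of the gastrula were among the lists furthest below control B. Many of their members are considered only because control B expresses them, so a low ratio follows for those, and the counts only describe the lists. Over all genes tested, 41.6% rose and 29.2% fell, and 28.7% of all genes considered were at least 2-fold lower. In the dorsal organizer, the signalling centre that patterns the body axis, 5 of 15 genes fell and 1 rose in the authors' deposited table, with a median of -4.37, and 14 were at least 2-fold lower. Chordin, chd, a secreted antagonist of BMP, had 0.150 FPKM in amanitin, 130 in control B and 0.312 at 2 hpf. Goosecoid, gsc, a homeobox repressor, had 0.376 FPKM in amanitin and 65.0 in control B. The LIM homeobox gene lhx1a had 4.24 FPKM in amanitin, 107 in control B and 10.4 at 2 hpf.

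Among FGF ligands and feedback genes, 2 rose and 12 fell of 19 considered, of 25 rows in the table (median -2.92; calls from the authors' deposited table). The receptor fgfr4 had 0.0908 FPKM in amanitin and 129 in control B. The receptor fgfr1a, carried in the egg, had 58.0 FPKM in amanitin, 59.8 in control B and 58.7 at 2 hpf, with a q of 0.777 in the authors' deposited table. The phosphatase dusp6, which shuts down signalling through ERK, had 0.118 FPKM in amanitin and 144 in control B. The ETS factors etv5a and etv5b, paralogs that respond to FGF, went opposite ways. Etv5a had 212 FPKM in amanitin, 59.1 in control B and 124 at 2 hpf and rose, and etv5b had 27.97 FPKM in amanitin, 169 in control B and 54.4 at 2 hpf and fell.

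Of 35 Wnt pathway genes considered of 43 rows, 5 rose and 21 fell by the calls of the authors' deposited table (median -2.54). These counts stand beside 41.6% rising and 29.2% falling over all genes tested. The ligand wnt11, needed for convergence and extension movements, had 0.188 FPKM in amanitin, 104 in control B and 1.57 at 2 hpf. The receptor fzd7a had 0.758 FPKM in amanitin and 170.0 in control B, while its paralog fzd7b had 54.4 FPKM in amanitin, 124 in control B and 59.0 at 2 hpf. At 2 hpf fzd7a stood at 0.884 FPKM, so both receptors fell against control B and both stood near their egg level in amanitin. Beta-catenin, ctnnb1, the intracellular carrier of the signal, had 240 FPKM in amanitin, 436 in control B and 145 at 2 hpf. The secreted Wnt antagonist notum1a had 0.195 FPKM in amanitin and 87.0 in control B.

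Notch pathway and Hairy/E(spl) genes numbered 27 of 34 rows, with 4 rises and 16 falls in the authors' deposited table (median -2.38). The glycosyltransferase lfng, which modifies Notch, had 0.863 FPKM in amanitin, 124 in control B and 9.36 at 2 hpf, and the repressor her1 had 0.159 FPKM in amanitin and 105 in control B. Rbpja, the DNA-binding partner of Notch, is supplied by the egg and rose, with 81.4 FPKM in amanitin, 37.2 in control B and 63.9 at 2 hpf. In the retinoic acid list 2 rose and 7 fell of 12 considered (median -2.11). Both lists stand beside 41.6% rising and 29.2% falling over all genes tested. The retinol dehydrogenase rdh10b, abundant in the egg, had 25.8 FPKM in amanitin, 207 in control B and 484 at 2 hpf.

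All 8 rows considered, of 10, of chemokines, their receptors and apelin receptors were at least 2-fold lower, and 5 fell in the authors' deposited table (median -5.10). Of all genes considered 28.7% were at least 2-fold lower, and of all genes tested 29.2% fell. The receptor cxcr4b, which guides migrating cells, had 2.04 FPKM in amanitin, 218 in control B and 10.1 at 2 hpf. Its paralog cxcr4a, active in endoderm, had 0.995 FPKM in amanitin and 137 in control B. The apelin receptor aplnrb, needed for the movement of mesendoderm, had 0.288 FPKM in amanitin and 131 in control B. Rows below 1 FPKM in amanitin, such as cxcr4a and aplnrb, are considered only through control B. For them a lower value follows from the filter.

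Among transcription factors, 12 of 16 genes of the hox, cdx, ventx, irx and zic families considered (of 74 rows) were at least 2-fold lower, with 5 falls and 2 rises in the authors' deposited table (median -4.58). The ventral repressor vox had 2.01 FPKM in amanitin, 321 in control B and 2.03 at 2 hpf. The neural plate gene zic2b had 1.18 FPKM in amanitin, 353 in control B and 4.09 at 2 hpf. Forkhead genes divided more evenly by the calls, with 11 rises and 7 falls of 28 considered of 52 rows (median -0.63). By size 7 of the 28 were at least 2-fold higher and 13 lower, beside 20.5% and 28.7% of all genes. Beside both lists, 41.6% of all genes tested rose and 29.2% fell. Foxh1, the Smad partner in Nodal signalling, fell, with 33.8 FPKM in amanitin, 126 in control B and 39.05 at 2 hpf. Foxo3a rose, with 53.4 FPKM in amanitin, 22.5 in control B and 19.4 at 2 hpf, and so did foxm1, a driver of mitotic genes, with 43.1 FPKM in amanitin and 20.8 in control B. Prdm14 (listed at 0 in amanitin, 17.9 FPKM in control B) and the presomitic factor mespab (listed at 0 in amanitin, 13.3 FPKM in control B) were among low genes that fell in the authors' deposited table.

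Genes of cell adhesion and gastrulation movement gave 5 rises and 18 falls among 33 considered of 39 rows in the authors' deposited table (median -1.87). The shares over all genes tested were 41.6% rising and 29.2% falling. E-cadherin, cdh1, the main adhesion molecule of the blastoderm, rose, with 404 FPKM in amanitin, 296 in control B and 326 at 2 hpf. Epcam, which acts with it, fell, with 236 FPKM in amanitin, 409 in control B and 800.3 at 2 hpf. Snai1a, a repressor of cadherin genes, had 70.6 FPKM in amanitin, 237 in control B and 63.0 at 2 hpf, so in amanitin it lay near the egg. The GTPase rhoab had 0.516 FPKM in amanitin and 149 in control B.

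Claudins and other tight junction genes split into egg-supplied and zygotic members, with 7 rises and 6 falls among 29 considered of 46 rows in the authors' deposited table. By size 4 of the 29 were at least 2-fold higher and 13 lower, beside 20.5% and 28.7% of all genes. Their median of -0.33 turned to 0.01 at equal sums. Claudin cldnd had 341 FPKM in amanitin, 184 in control B and 1853 at 2 hpf, and rose. Occludin, oclna, had 293 FPKM in amanitin and 176 in control B, and rose. Claudin cldnb had 0.124 FPKM in amanitin and 166 in control B, but its q was 0.0790 there. The profilins, which deliver actin monomers and are both present in the egg, went opposite ways: pfn2 rose, with 699.8 FPKM in amanitin, 182 in control B and 345 at 2 hpf, and pfn1 fell, with 64.8 FPKM in amanitin, 576 in control B and 89.1 at 2 hpf. Over 37 cytoskeleton genes 13 rose and 13 fell, with a median of 0.05 that becomes negative when centred on the median gene. Beside both lists, 41.6% of all genes tested rose and 29.2% fell.

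**Figure D3:**
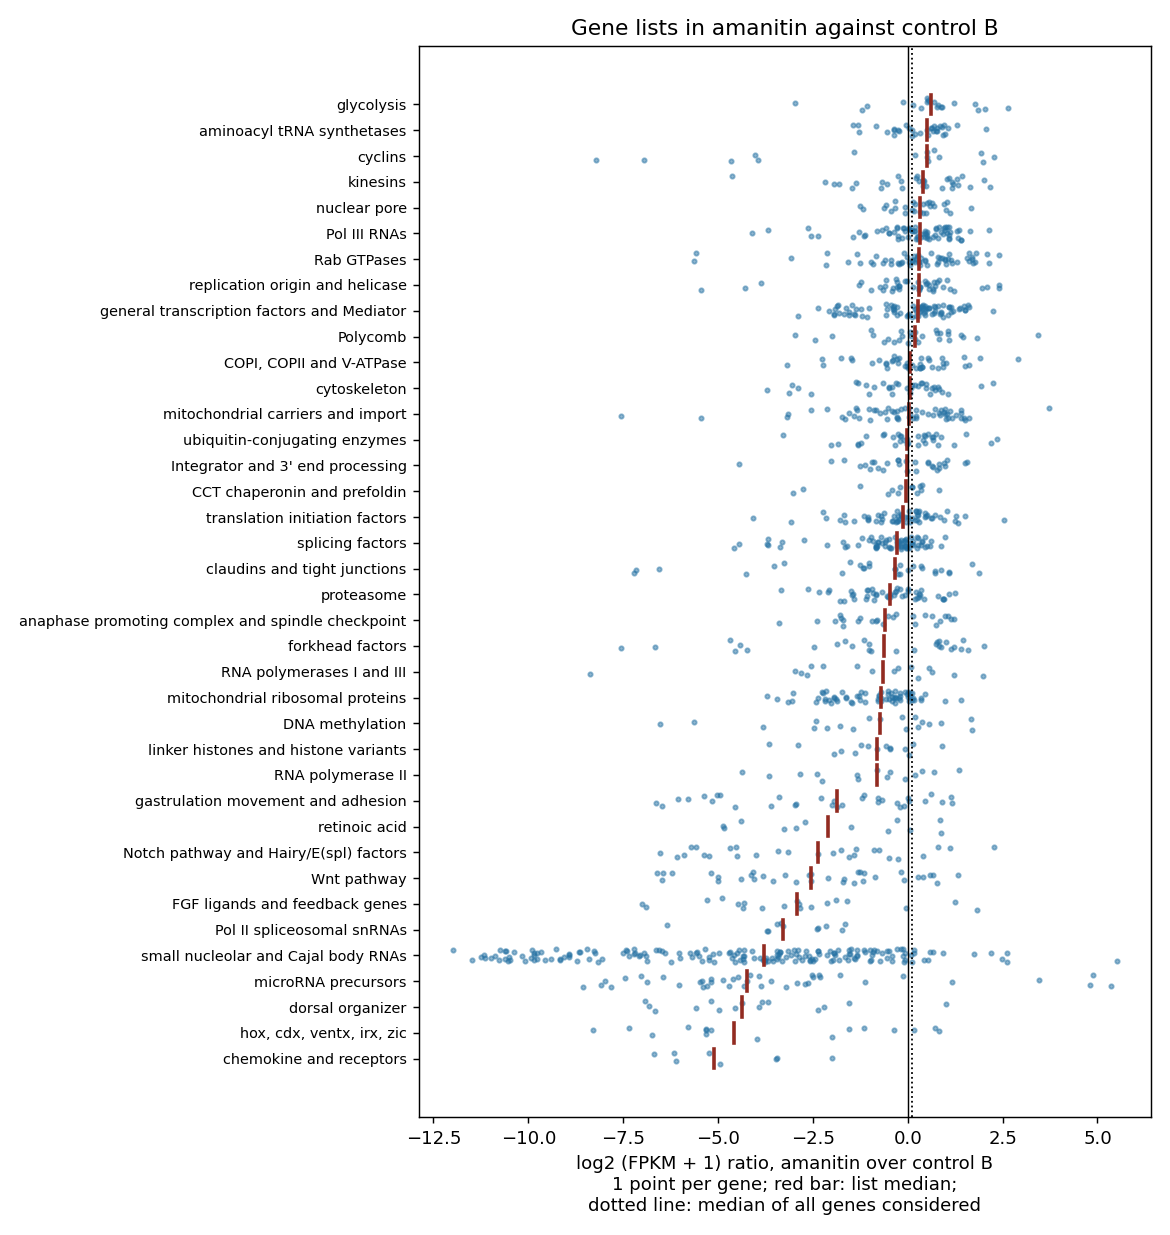
Each row is a gene list and each point a gene, placed by its log2 (FPKM + 1) ratio of amanitin to control B on the horizontal axis; the red bar is the list's median and the dotted line the median of all genes considered, 0.12. Chemokines with their receptors and apelin receptors (-5.10), homeobox families (-4.58) and the dorsal organizer (-4.37) lie lowest, and glycolysis (0.62) highest; the medians of 9 lists near 0 change sign with the scaling.

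Cyclins went both ways. Of 15, all but 1 row of the 16 in the table, 8 rose and 5 fell by the calls of the authors' deposited table (median 0.51). The shares over all genes tested were 41.6% and 29.2%. The mitotic cyclin ccnb2 had 821 FPKM in amanitin, 214 in control B and 777 at 2 hpf. The embryonic and germline cyclin A gene, ccna1, had 1351 FPKM in amanitin, 278 in control B and 846 at 2 hpf. The ubiquitous cyclin A gene ccna2 had 1272 FPKM in amanitin and 783 in control B, and ccnb1 had 1732 FPKM in amanitin and 1219 in control B. The lowest ratios, named after the values were seen, were those of purely zygotic members: ccnd1 had 1.07 FPKM in amanitin, 610 in control B and 0.832 at 2 hpf, and ccne2 had 0.119 FPKM in amanitin and 138 in control B. The egg-supplied paralog of ccne2, ccne1, rose, with 640 FPKM in amanitin and 449 in control B. These lie on a scale per transcript length, so the levels of different cyclins may be set side by side: in amanitin ccnb1, ccna1 and ccna2 stood highest.

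Of 46 replication genes considered, 21 rose and 9 fell by the authors' deposited table (median 0.30, which becomes negative with control 6 hpf in place of control B), beside 41.6% and 29.2% over all genes tested. Only 7 were at least 2-fold higher and 5 lower. The origin recognition subunit orc6 had 216 FPKM in amanitin, 39.7 in control B and 189 at 2 hpf, while the sliding clamp gene pcna fell, with 481 FPKM in amanitin and 628 in control B. In the list of the anaphase promoting complex and spindle checkpoint, 8 rose and 15 fell of 26 (median -0.59). Fbxo5, the inhibitor of that complex known as Emi1, had 20.4 FPKM in amanitin, 222 in control B and 320 at 2 hpf, and ube2c, the ubiquitin-conjugating enzyme of the complex, had 20.9 FPKM in amanitin, 214 in control B and 293 at 2 hpf. The checkpoint protein gene mad2l1 had 49.1 FPKM in amanitin, 188 in control B and 320 at 2 hpf. All of these fell. The activator gene cdc20 rose, with 502 FPKM in amanitin, 279 in control B and 622 at 2 hpf. Of 32 kinesins, motor proteins of microtubules, 15 rose and 7 fell (median 0.39), and kif11, the motor that separates spindle poles, fell, with 26.8 FPKM in amanitin, 125 in control B and 304 at 2 hpf.

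Chromatin genes also divided. Among histone variants and linker histones 1 rose and 9 fell of 15 in the authors' deposited table (median -0.81). The shares over all genes tested were 41.6% rising and 29.2% falling. H3f3a, a gene of the replacement histone H3.3, had 1509 FPKM in amanitin, 5120 in control B and 1074 at 2 hpf, and h2afx, marked at DNA breaks, had 1123 FPKM in amanitin, 2959 in control B and 738 at 2 hpf. Histone genes are copies of each other, so their separate levels are uncertain. The 1 that rose, h1m, named after its values were seen, is the linker histone of the egg, with 339 FPKM in amanitin, 182 in control B and 1064.5 at 2 hpf.

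Dnmt1, the maintenance DNA methyltransferase, had 219 FPKM in amanitin, 67.6 in control B and 516 at 2 hpf and rose, whereas the de novo enzyme gene dnmt3 had 48.2 FPKM in amanitin, 132 in control B and 37.8 at 2 hpf, and fell. Of 19 DNA methylation genes 4 rose and 10 fell by the calls of the authors' deposited table (median -0.74). Of 29 Polycomb genes 10 rose and 7 fell (median 0.19). Beside both lists, 41.6% of all genes tested rose and 29.2% fell. Phc2b, of Polycomb repressive complex 1, was the furthest up of the list, with 1704 FPKM in amanitin, 158 in control B and 2269 at 2 hpf, a log2 ratio of 3.43. The histone chaperone gene rbb4 had 27.1 FPKM in amanitin, 152 in control B and 259 at 2 hpf.

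Splicing factors fell more often than they rose, 35 against 9 of 73 in the authors' deposited table, with a median of -0.29 that turned to 0.07 at equal sums. Hnrnpa0l had 1269 FPKM in amanitin, 2248 in control B and 776 at 2 hpf, and its relative hnrnpa0b had 55.5 FPKM in amanitin, 582 in control B and 55.9 at 2 hpf. In amanitin hnrnpa0b was at the level of the egg. Nuclear pore genes gave 12 rises and 6 falls of 27 (median 0.33), with nup35 at 243 FPKM in amanitin and 75.4 in control B. Beside these lists, 41.6% of all genes tested rose and 29.2% fell.

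In translation, 16 aminoacyl tRNA synthetase genes rose and 6 fell of 33 in the authors' deposited table (median 0.52). This and the counts that follow stand beside 41.6% rising and 29.2% falling over all genes tested. Among the synthetase genes that rose was eprs, for glutamate and proline, with 71.4 FPKM in amanitin and 28.7 in control B. Initiation factors gave 15 rises and 21 falls of 60, with a median of -0.12 that turned to 0.24 at equal sums. The helicase gene eif4a1a had 364 FPKM in amanitin, 753 in control B and 346 at 2 hpf. Mitochondrial ribosomal protein genes fell broadly, 40 of 68, and 5 rose (median -0.71). Mrpl21, listed as MRPL21, had 2.87 FPKM in amanitin, 41.5 in control B and 45.2 at 2 hpf, and mrps6 had 5.06 FPKM in amanitin, 48.3 in control B and 40.9 at 2 hpf. In control B both stood near the level of the egg, and in amanitin far below it. The 13 rows of the mitochondrial genome itself were listed at 0 in both groups and are not among the genes considered.

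Mitochondrial carriers and import genes were divided, 20 rises and 18 falls of 59 in the authors' deposited table, with a median of 0.03 that becomes negative when centred on the median gene. The glutamate carrier slc25a22 had 0.247 FPKM in amanitin and 233.7 in control B, while the import receptor tomm70a had 164 FPKM in amanitin and 75.7 in control B. Glycolysis was the list with the highest median, 0.62, and of 20 genes considered 14 rose and 1 fell. Beside both lists, 41.6% of all genes tested rose and 29.2% fell. Gapdh had 649 FPKM in amanitin, 349 in control B and 826 at 2 hpf, and the pyruvate kinase gene pkma had 121 FPKM in amanitin, 51.1 in control B and 163 at 2 hpf. The 1 gene that fell was the aldolase aldoaa, with 86.8 FPKM in amanitin, 202 in control B and 153 at 2 hpf. Gapdh and pkma were thus further below the egg in control B than in amanitin.

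Proteasome genes fell more often than they rose, 26 against 10 of 48 in the authors' deposited table (median -0.47). This and the counts that follow stand beside 41.6% rising and 29.2% falling over all genes tested. The catalytic subunit psmb7 had 37.6 FPKM in amanitin, 164 in control B and 87.3 at 2 hpf, and the activator psme3 rose, with 281 FPKM in amanitin and 162 in control B. Ubiquitin-conjugating enzymes gave 17 rises and 11 falls of 36, with a median of -0.01 that turned positive at equal sums, and ube2d2 rose, with 127 FPKM in amanitin and 27.01 in control B. The chaperonin CCT and prefoldin gave 4 rises and 5 falls of 14 (median -0.05, positive at equal sums), and cct8 rose, with 501 FPKM in amanitin and 284 in control B.

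Of 62 Rab GTPases, which direct vesicle traffic, 27 rose and 11 fell by the authors' deposited table (median 0.30), beside 41.6% and 29.2% over all genes tested. Rab18b had 100.1 FPKM in amanitin, 22.8 in control B and 75.9 at 2 hpf, and rab8a had 134 FPKM in amanitin and 40.8 in control B. Coat proteins and the V-ATPase gave 16 rises and 10 falls of 42, with a median of 0.05 that becomes negative when centred on the median gene. Within this list the translocon genes parted: sec61g fell, with 36.3 FPKM in amanitin, 337 in control B and 388 at 2 hpf, and sec61b had 1033 FPKM in amanitin and 959 in control B with a q of 0.781.

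Non-coding RNAs are given by the polymerase known to make them. The values of short RNAs are uncertain, since FPKM scale by length, copies are nearly alike and many rows share a locus with a host gene. Of 41 microRNA precursors considered, of 324 rows, 35 (85.4%) were at least 2-fold lower, beside 28.7% of all genes. In amanitin 32 were listed at 0. These rows are considered only through control B, so for them a lower value follows from the filter. Of the 15 that the authors tested, 6 fell and none rose in their deposited table, beside 29.2% and 41.6% of all genes tested. Mir430a-11 (chromosome 4), of the cluster that the embryo transcribes at genome activation and that clears maternal RNA, had 12.2 FPKM in amanitin, 3299 in control B, 9551 in control 6 hpf and 5.27 at 2 hpf, with a q of 0.283. Members of the miR-17-92 family followed: mir19a was listed at 0 in amanitin and at 2 hpf and stood at 375 FPKM in control B, and mir17a-2 was listed at 0 in amanitin and stood at 272 FPKM in control B. The 5 precursors that were at least 2-fold higher, named after their values were seen, were a row of mir150, mir216a-1, dre-mir-146a, dre-mir-430b-4 and mir301a-1. They had between 10.01 and 44.4 FPKM in amanitin. The authors tested only the mir150 row (q of 0.592) and mir301a-1 (q of 0.252) and called neither. All but the mir150 row were listed at 0 in control B. Those are considered only through amanitin, so for them a higher value follows from the filter.

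Small nucleolar RNAs, which guide the modification of ribosomal RNA and are mostly cut from introns of RNA polymerase II transcripts, were among the lowest. Of 80 C/D box RNAs considered, 74 (92.5%) were at least 2-fold lower, beside 28.7% of all genes. Their medians were 0 FPKM in amanitin, 708 in control B and 0 at 2 hpf. Of 79 H/ACA box RNAs 62 (78.5%) were lower, with medians of 10.8 FPKM in amanitin, 129 in control B and 5.75 at 2 hpf. Listed at 0 in amanitin were 52 of the C/D box and 22 of the H/ACA box RNAs. Those rows are considered only through control B, so for them a lower value follows from the filter. SNORD47 was the most abundant in control B, with 1116 FPKM in amanitin, 8964 in control B and 781 at 2 hpf. Its log2 ratio was -3.01, with a q of 0.00289 in the authors' deposited table. In amanitin SNORA57 stood above it, at 1751 FPKM on its highest row. U3, which acts in the first cuts of the ribosomal precursor, had 316 FPKM in amanitin, 3427 in control B and 46.8 at 2 hpf on its highest row. Over small nucleolar and Cajal body RNAs together, 150 of 185 were at least 2-fold lower. The authors tested 154 of them, and 22 fell and 3 rose, beside 29.2% falling and 41.6% rising over all genes tested. Set against 2 hpf, 20 C/D box and 26 H/ACA box RNAs were at least 2-fold higher in amanitin. In control B 78 and 73 were.

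The spliceosomal RNAs U1, U2, U4atac, U11 and U12, all made by RNA polymerase II, had 11 rows considered of 580. All 11 were at least 2-fold lower, beside 28.7% of all genes. Of the 11 rows, 6 were listed at 0 in amanitin and are considered only through control B. For them a lower value follows from the filter. U4atac had 121 FPKM in amanitin, 405 in control B and 10.9 at 2 hpf, and was the 1 that fell in the authors' deposited table. U12 had 3.33 FPKM in amanitin, 352 in control B and 2.88 at 2 hpf, with a q of 0.180 there. Both belong to the minor spliceosome, and U4atac in amanitin was above the egg whereas U12 was level with it.

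Families of RNA made by RNA polymerase III differed from each other. The signal recognition particle RNA, part of the machine that targets proteins to the endoplasmic reticulum, had 60 copies considered of 74. None was listed at 0 in amanitin, 28 rose and 4 fell by the calls of the authors' deposited table, and the median log2 ratio was 0.48. The shares over all genes tested were 41.6% rising and 29.2% falling. Their summed FPKM was 93271 in amanitin, 71114 in control B, 96188 in control 6 hpf and 55922 at 2 hpf, so amanitin and control 6 hpf lay close and control B below both. RNase P RNA, which trims transfer RNA, had 10685 FPKM in amanitin, 15169 in control B and 4557 at 2 hpf, and the related RNase MRP RNA had 1249.7 FPKM in amanitin, 2174 in control B and 609 at 2 hpf. Rn7sk (chromosome 13), the 7SK RNA that restrains the elongation kinase P-TEFb, had 10103 FPKM in amanitin, 27214 in control B, 25980 in control 6 hpf and 395 at 2 hpf. All of these rows fell in the authors' deposited table, but in amanitin each stood above its 2 hpf level, 7SK by far the most. Of the 5 RNase P and RNase MRP rows considered, 3 fell there. A further RNase P row (q of 0.0764) and a further RNase MRP row (q of 0.0550) were not called. The 3 vault RNA rows, 1 U6 or U6atac row and 1 5S ribosomal RNA row considered were each at least 2-fold lower, and none of them was called in the authors' deposited table. The 5S row and 1 vault row were listed at 0 in amanitin, so for them a lower value follows from the filter. The 5S row was also at 0 in control 6 hpf. The U6 or U6atac row had 5.97 FPKM in amanitin, 41.9 in control B and 7.75 in control 6 hpf. Summed vault RNA was 41.2 FPKM in amanitin, 153 in control B and 64.9 in control 6 hpf. Over 70 rows of RNA polymerase III genes considered of 2757, a list without 7SK, 28 rose, all of them copies of the signal recognition particle RNA, and 7 fell, and the median of 0.32 turned to -0.07 with control 6 hpf in place of control B.

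**Figure D4:**
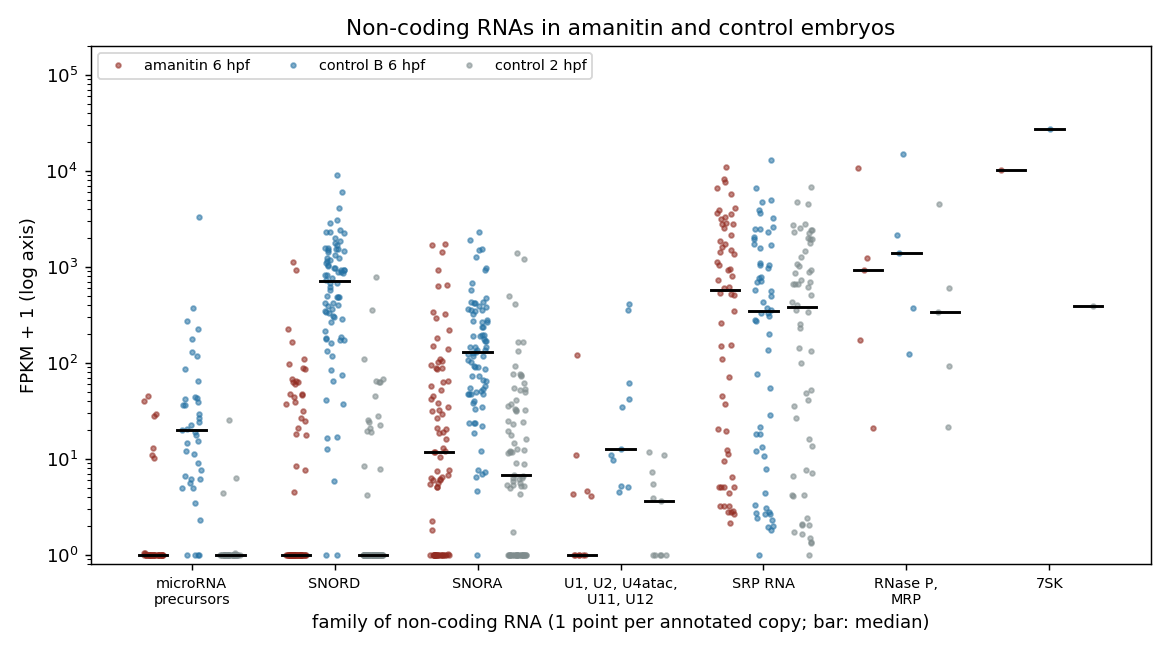
Each point is an annotated copy of a non-coding RNA, in amanitin, control B and control 2 hpf embryos, with FPKM + 1 on a logarithmic vertical axis and bars at the median; a point at 1 is a row listed at 0. C/D box RNAs have medians of 0 FPKM in amanitin and 708 in control B, while signal recognition particle RNA overlaps across the groups and 7SK in amanitin (10103 FPKM) lies between control B and 2 hpf.

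The 10 highest rows of each group were mostly such RNAs. In amanitin 5.8S ribosomal RNA led, with 25956 FPKM in amanitin, 14497 in control B, 35489 in control 6 hpf and 21702 at 2 hpf. Ribosomal RNA had been depleted from the libraries, so this level depends on how much was left. Among the 10 highest of control B, h3f3a was the only row with a named protein-coding symbol. The 10 highest of amanitin held none. The placeholder wu:fe38f03, whose type is not given, was in both, with 4195 FPKM in amanitin and 6708 in control B.

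A small set of purely zygotic rows was not at least 2-fold lower in amanitin, 17 of 895, and these were looked at after their values were seen. Of them 8 lie on chromosome 4, which holds 111 of the 895. One example, si:dkey-40n15.3 (chromosome 4, 52182166 to 52182857 in Zv9), had 29.4 FPKM in amanitin, 8.64 in control B and 15.0 in control 6 hpf and was listed at 0 at 2 hpf, with a q of 0.000105 in the authors' deposited table. Another, si:dkey-23a17.6 on the same chromosome, had 25.8 FPKM in amanitin, 16.8 in control B and 27.4 in control 6 hpf. Several of the other rows are small RNAs, such as SNORD33, with 17.3 FPKM in amanitin, 16.0 in control B and 120.4 in control 6 hpf. Reads shared with a related copy were not tested.

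Chromosome 4 as a whole stood apart in the other direction. Its long arm is known for repeats and for large clusters of zinc finger genes. Of its 792 genes considered, 60.1% were at least 2-fold lower and 10.5% at least 2-fold higher, beside 28.7% and 20.5% of all genes, and its median log2 ratio was -1.31. The next chromosome was 22, with 43.5% of 611 genes lower, and on the remaining 23 chromosomes the share was 30.2% or less. Along chromosome 4 the share was 33.9% in the first 10 Mb (n = 174) and 26.99% from 10 to 20 Mb (n = 163), 58.8% from 20 to 30 Mb (n = 85), 99.2% from 30 to 40 Mb (118 of 119), 93.3% from 40 to 50 Mb (83 of 89) and 86.8% from 50 to 60 Mb (112 of 129). From 60 Mb on it was 30.3% of 33 genes.

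Of the genes considered on chromosome 4, 14.0% were purely zygotic and 41.3% low, beside 5.55% and 25.1% of all genes. Within classes, low genes were at least 2-fold lower in 77.4% of 327 cases on chromosome 4 and in 38.4% of 3715 cases elsewhere, and gained genes in 97.2% of 72 and 78.0% of 1054. For cleared genes the shares were 6.25% of 112 on chromosome 4 and 6.55% of 4150 elsewhere, and purely zygotic genes were lower less often there, 92.8% of 111 against 98.9% of 784, with medians of -3.36 and -4.36. Median levels of the low genes on chromosome 4 were 0.0493 FPKM in amanitin, 2.19 in control B and 0.251 at 2 hpf. A gene near 0 in amanitin is considered only because control B reached 1 FPKM, which on the FPKM + 1 scale nearly fixes it as 2-fold lower, so the share of low genes describes the filter as well as the chromosome. No test was run on these shares, since neighbouring genes are not independent and related copies share reads.

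**Figure D5:**
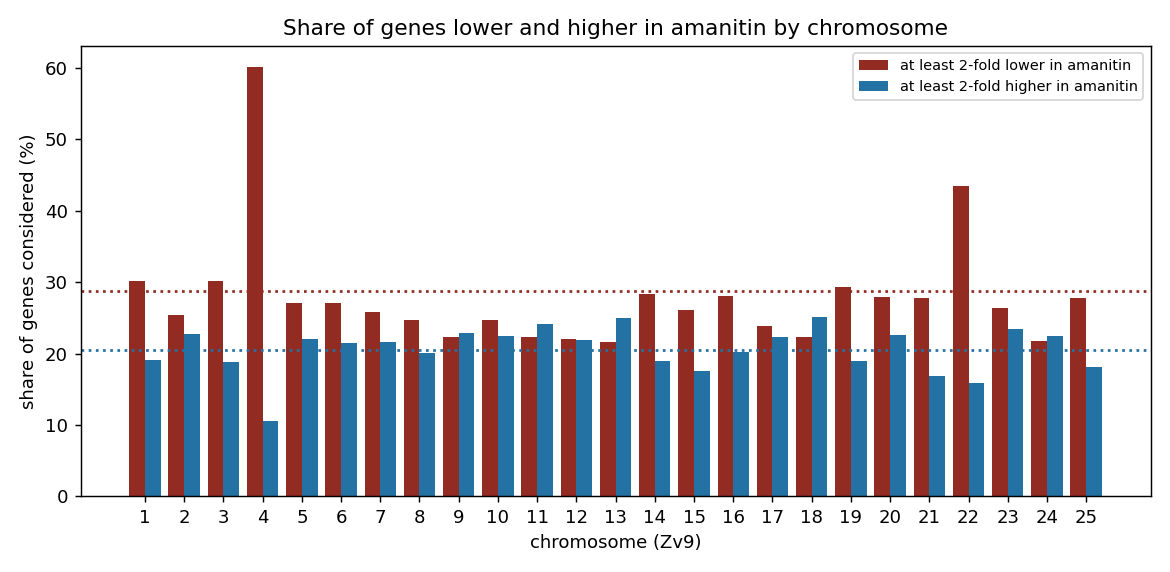
Bars give, for each chromosome of Zv9, the percent of genes considered that were at least 2-fold lower (dark red) and at least 2-fold higher (blue) in amanitin than in control B, with dotted lines at the shares over all genes, 28.7% and 20.5%. Chromosome 4, at 60.1% lower, and chromosome 22, at 43.5%, stand above the others.

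Markers of the tissues of the gastrula were checked as summed FPKM. Enveloping layer markers (5 rows) summed to 17.3 in amanitin, 3883 in control B and 10.4 at 2 hpf, and yolk syncytial layer markers (8 rows) to 2.79 in amanitin, 2839 in control B and 1.39 at 2 hpf. Mesoderm markers (6 rows) summed to 0.451 in amanitin and 627 in control B, endoderm markers (6 rows) to 0.465 and 323, and neurectoderm markers (5 rows) to 2.58 and 1063. The mesoderm factor ntla, the endoderm factors sox17 and bon (1 of its 2 rows), the neural factor sox2 and the yolk layer gene apoa1b were listed at 0 in amanitin. Germ cell markers (6 rows), whose RNA is laid down in the egg, went the other way, with 588 in amanitin, 220 in control B and 999 at 2 hpf. Markers of later tissues (9 rows) summed to 2.28 in amanitin and 2.64 in control B. The part of the tissue make-up in the results on gene lists was not tested.

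Embryos injected with a morpholino against miR-430 (miR-430 MO) or with CNOT7-DN at 6 hpf share no sample with amanitin or control B, and were compared with control 6 hpf. Of the 3299 genes at least 2-fold higher in amanitin, 196 (5.94%) were also at least 2-fold higher in miR-430 MO, beside 2.28% of all genes considered. Those 196 were 53.3% of the 368 genes higher in miR-430 MO, and another 126 of these (34.2%) were at least 2-fold lower in amanitin, beside 28.7% of all genes. For CNOT7-DN the overlap was 82 genes (2.49%), beside 1.26% of all, and formed 40.4% of its 203, while 43 (21.2%) were at least 2-fold lower in amanitin. No test of the overlap was run.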

How the data were processed

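Whole AB embryos were sequenced as stranded total RNA after ribosomal RNA removal, per the labels' protocols. The submitters' processing notes name TopHat 1.4.0, Cuffdiff 2.1.1 and the genome build Zv9 (danRer7); no source used here gives the annotation release, the scaling between libraries or the strand setting of counting. The authors deposited 1 FPKM per gene and group for each comparison, with a p-value and q-value, per the file headers. Control 6 hpf and 2 hpf are taken from their own comparison. The smallest p-value in the authors' deposited table is 5e-05.

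Log2 ratios of FPKM + 1 were computed with Python 3.11.15, numpy 2.4.6 and pandas 2.3.3, after a check on simulated data, for rows at 1 FPKM or more in either group. No p-value was computed. Of these rows 3209 (19.9%) share a locus with another, and 879 were not tested by the authors. Loci are as deposited.

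The genes, classes and 39 lists were chosen with earlier results of these data known. Patterns that caught unrelated symbols in 4 lists (small nucleolar RNAs, initiation factors, proteasome, Rab) were corrected after values were seen. Named genes are, per class, the 5 lowest and 5 highest ratios with q under 0.05 and 5 FPKM or more (unique symbols, no placeholders or small RNAs), up to 6 members per list by level, and the 10 highest rows per group; exceptions are said in place, and not every gene under the rule is printed.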

Additional observations from a re-analysis of the deposited data

How the results depend on the processing

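Of 64 class shares and counts recomputed under 8 alternatives, 36 stayed within their exact binomial interval or 1.5 times the count. Part of this was fixed in advance. With no FPKM minimum the counts stayed at 3299 higher and 4627 lower, since values below 1 FPKM cannot differ 2-fold on the FPKM + 1 scale. The intervals treat genes as independent and narrow with class size, so they only describe how far a share moved. The balance of higher and lower genes turned at equal sums over all genes, and for steady genes when centred, with a pseudocount of 5 and with control 6 hpf. With a pseudocount of 5, 1900 genes passed 2-fold upward and 2702 downward; the lower share was 93.6% of purely zygotic, 74.6% of gained, 11.7% of steady and 3.14% of cleared genes, and 11.5% of steady and 28.1% of cleared genes were higher. With a pseudocount of 0.1, 16.5% of steady genes were lower and 21.6% higher, and 8.19% and 47.0% of cleared genes. At equal sums 5122 genes were higher and 4104 lower; 70.2% of gained, 11.6% of steady and 4.32% of cleared genes were lower, and 35.3% of steady and 55.4% of cleared genes higher. Centred on the median gene, 17.3% of steady and 7.77% of cleared genes were lower and 13.9% and 37.8% higher. With control 6 hpf in place of control B, which also helped define the classes, 14.7% of steady genes were higher and 15.5% lower, and 7.40% of cleared genes were lower and 31.5% higher. With an FPKM minimum of 5, 49.1% of cleared genes were higher. With no minimum, 96.1% of purely zygotic genes were lower. With unique symbols and loci, 84.8% of gained genes were lower.

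Of 38 list medians, 9 change sign under a scaling (chaperonin and prefoldin, coat proteins and V-ATPase, Integrator and 3′ end processing, claudins, cytoskeleton, mitochondrial carriers, splicing factors, initiation factors and ubiquitin-conjugating enzymes). Of 11 medians at 1 or more in size, 9 kept their sign in all alternatives, but not always their size. With no FPKM minimum, the median of the hox, cdx, ventx, irx and zic families went from -4.58 to -0.04. The retinoic acid median went from -2.11 to -0.07. Those of microRNA precursors and of spliceosomal RNAs were 0 with no FPKM minimum, where most rows are listed at 0. The cause of other differences was not tested. No paired analysis was possible because the table gives 1 value per group, which also leaves no replicate to leave out and no depth.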
